A study of Xenopus laevis with 4 samples.

Results

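The genes described here were chosen by their counts as genes seen in few cells of the ectoderm of the frog Xenopus laevis. In each of the 2 libraries from fertilized embryos a gene had to hold at least 30 UMIs, to be detected in 1 to 15% of the cells, and to have at least 80% of its UMIs in the 5% of cells that held most of them. A UMI (unique molecular identifier) marks one captured transcript molecule, and PCR duplicates of it count once. Of 31179 genes, 353 met these criteria. Of these, 15 were left out because their level in cloned embryos differed from that in fertilized ones the same way in both experiments. The difference was more than 0.8 on the log2 scale in each. Of the 15, 9 were higher and 6 lower in cloned embryos. The 300 of the remaining 338 genes with the highest mean level were kept and are called members below.

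Embryos made by nuclear transfer (NT) received endoderm nuclei of neurula stage donors in enucleated eggs, and the controls were embryos made by in vitro fertilization (IVF). Ectodermal explants of stage 12 gastrulae gave 1 IVF and 1 NT library in each of 2 experiments, named IVF1, NT1, IVF2 and NT2, each from a pool of 5 embryos. Only NT embryos that looked like IVF embryos were used, and the labels give no strain and no other treatment. The replicate is the library (n = 2 per condition), so the spread between single embryos cannot be seen. The libraries held 566 (IVF1), 514 (NT1), 1275 (IVF2) and 1050 (NT2) cells with between 16543235 and 58592836 UMIs in all, and the median cell had between 23346 and 27266.5 UMIs in experiment 1 and between 44371 and 45100.5 in experiment 2. No cell barcode was shared between libraries.

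At the end of gastrulation the frog ectoderm has an outer and an inner cell layer. The inner layer holds the precursors of multiciliated cells, ionocytes and basal stem cells, which are interspersed among other cells and turn on regulators of their own, and the border of the neural plate lies next to it. Transcripts of such scattered cells are found in a small share of the cells and usually in several copies per cell. Droplet methods also miss most transcripts of a cell, so that a weakly expressed gene is seen in few cells wherever it is expressed. The 31179 gene identifiers of the files had 0 matches in the reference table used here, so that members carry no gene symbol and no known function, and the lists of cell type markers and the labelled tissue could not be checked.

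Most members were genes with few UMIs rather than genes with many UMIs in few cells, so the name of genes confined to few cells was not borne out for the list as a whole. The counts of such genes do not show the contrary either. Mean levels in IVF ranged from 1.16 to 9.06 CPM, the UMIs of a gene scaled to the total of its library, with a median of 1.38. In IVF1 a member had from 30 to 113 UMIs (median 36) in 14 to 40 cells (median 33). In IVF2 it had from 30 to 939 UMIs (median 55) in 21 to 188 cells (median 50). The median number of UMIs per positive cell was 1.09 in IVF1 and 1.07 in NT1, beside 1.06 in IVF2 and 1.06 in NT2. For a typical member, a single molecule was thus captured in a positive cell.

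With 1 UMI in each positive cell, a gene of up to 36 UMIs meets the requirement for the top cells in IVF1 by arithmetic, because 29 cells make up the 5%. Of the 300 members, 175 had no more than 36 UMIs there. In IVF2, where 64 cells make up the 5%, the corresponding limit was 80 UMIs. The members were then compared with the number of cells that would hold a UMI if the UMIs of a gene fell on cells in proportion to each cell's total. At least 0.8 of that number was reached by 282 members in IVF1 and 287 in NT1, beside 274 in IVF2 and 275 in NT2. Fewer than 0.5 of it was reached by 4, 3, 11 and 8 members in the same order, and the shares among comparison genes are given below. For genes with few UMIs the expected number of cells lies close to the number of UMIs. The comparison therefore cannot tell a weak gene confined to part of the cells from one expressed weakly in all. The bounds of 0.8 and 0.5, and the bound of 2 UMIs per positive cell used below, were chosen after the values were seen.

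**Figure D1:**
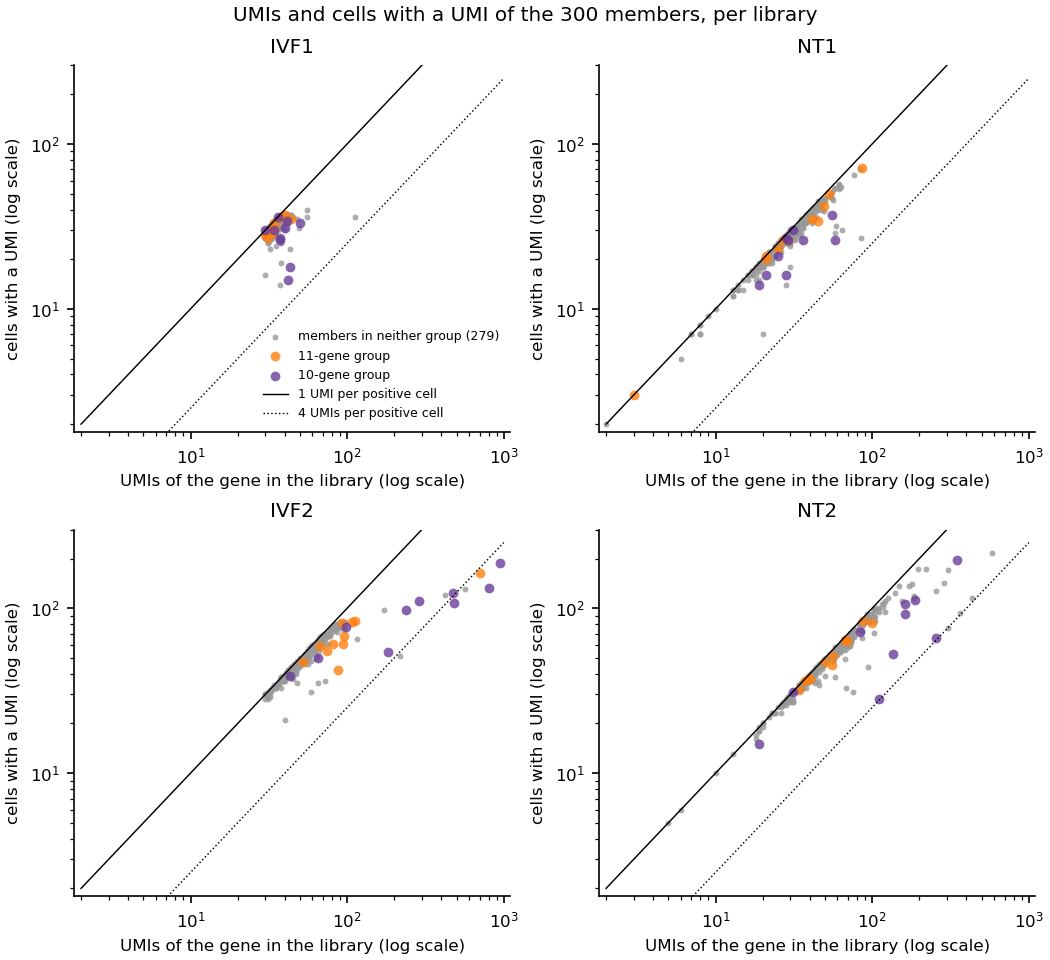
UMIs of each of the 300 members (horizontal axis, log scale) against the number of cells with a UMI (vertical axis, log scale) in each library. Most points lie near the solid line of 1 UMI per positive cell in all 4 libraries, while several genes of the 10-gene group (purple) lie near the dotted line of 4 UMIs per positive cell in IVF2.

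The 1897 genes with at least 30 UMIs in 1 to 15% of the cells of both IVF libraries that failed the requirement for the top cells served as a comparison. They had more UMIs, with a median of 61 in IVF1 and 97 in IVF2. Their median number of UMIs per positive cell was 1.11 in IVF1 and 1.08 in IVF2. At least 2 UMIs per positive cell were held by 5 members (1.67%) and 7 comparison genes (0.369%) in IVF1, and by 13 members (4.33%) and 23 comparison genes (1.21%) in IVF2. These differences follow in part from the rule and were not tested. In the NT libraries, whose concentration in top cells the rule did not use, 6 members (2.00%) against 11 comparison genes (0.580%) reached 2 UMIs per positive cell in NT1, and 11 members (3.67%) against 26 comparison genes (1.37%) in NT2. Fewer than 0.5 of the expected cells were reached by 1.33% of members against 0.105% of comparison genes in IVF1, and 3.67% against 0.791% in IVF2. In NT1 the shares were 1.0% against 0.105%, and in NT2 2.67% against 0.738%. Members were thus more often under that bound in each library, which was not tested.

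The genes nearest to some bounds on either side are given here to show where the list was cut. They were picked for being near, and only the value of the bound was compared. Xelaev18002794m.g had 80% of its UMIs in the top cells of IVF1, and Xelaev18023689m.g, left out, had 79.5%. In IVF2 Xelaev18046667m.g had 80% and Xelaev18022203m.g, left out, 79.8%. The last gene kept, Xelaev18024436m.g, and the first gene cut, Xelaev18034874m.g, were tied at a mean of 1.16 CPM and were separated by their order in the files. Xelaev18008170m.g was kept with a smaller log2 NT over IVF difference of 0.79 across experiments, and Xelaev18045277m.g was dropped with 0.81.

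The criteria were then read in the NT libraries. In NT1, 145 members had at least 30 UMIs, and 66 of these (45.5%) met all 3 criteria, against 3.54% of the 14115 other genes with at least 30 UMIs. In NT2, 265 members had at least 30 UMIs and 189 of them (71.3%) met the criteria, against 14.1% of 15694 other genes. Low levels favour meeting the criteria, and the members were low in both conditions, so these shares are given with no test. The share of positive cells was higher in NT than in IVF for 115 members and lower for 185 in experiment 1, and higher for 187 and lower for 112 in experiment 2. With cells thinned to 20000 UMIs it was higher for 142 and lower for 158 in experiment 1, where NT1 was the shallower library, and higher for 186 and lower for 114 in experiment 2. Unthinned, it moved the opposite way in the 2 experiments for 138 members, and the same way for 82 higher and 79 lower in NT. The median log2 NT over IVF level of the members was -0.03 in experiment 1 and 0.11 in experiment 2, beside 0.05 and 0.19 over all 2250 genes of 30 UMIs in 1 to 15% of IVF cells. The counts of higher and lower shares were not made for those 2250 genes. The rule limited the contrast between NT and IVF, which is a description only. It dropped genes that moved strongly the same way in both experiments from the members, but not from the 2250 genes. The medians of the members lay below those of the 2250 genes in both experiments, which was not tested. Whether the members share a shift between NT and IVF cannot be read from these counts.

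A small part of the list held several UMIs per positive cell. In at least 1 library, 22 of the 300 members had 2 or more UMIs per positive cell, 7 did so in at least 2 libraries, 6 in at least 3 and 0 in all 4. These counts over libraries were not made for the comparison genes, so they are no result particular to the members. Among these 22 genes, 7 belonged to a group of 10 genes found together in the same cells and 2 to a group of 11, both described below. The other 13 were in neither group. The most abundant of them, Xelaev18036325m.g, had 33 UMIs in 31 cells of IVF1, 20 in 19 cells of NT1, 565 in 130 cells of IVF2 and 43 in 35 cells of NT2. Its concentration was thus seen in IVF2, where 1 cell held 77 of its UMIs, and not in the other 3 libraries.

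Xelaev18004580m.g also stood out in IVF2, with 419 UMIs in 120 cells, beside 43 in 23 cells of IVF1, 19 in 15 cells of NT1 and 50 in 39 cells of NT2. Xelaev18027489m.g differed from both by being concentrated in both conditions and both experiments. It had 113 UMIs in 36 cells of IVF1, 64 in 30 cells of NT1, 59 in 31 cells of IVF2 and 361 in 93 cells of NT2, or 3.14, 2.13, 1.90 and 3.88 UMIs per positive cell. Its level was 5.77 CPM in IVF1 and 3.87 in NT1, beside 1.01 in IVF2 and 7.25 in NT2, so that NT was lower than IVF in experiment 1 and higher in experiment 2.

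Other members, named after their values were seen, were concentrated in different libraries. Xelaev18029080m.g had 433 UMIs in 115 cells of NT2 and no more than 54 UMIs in any other library, and Xelaev18016289m.g had 584 UMIs in 215 cells of NT2 and no more than 70 elsewhere. Both were highest in the second NT library. Xelaev18045102m.g had most UMIs per positive cell in experiment 1, with 37 UMIs in 14 cells of IVF1 and 85 in 27 cells of NT1, beside 48 in 35 cells of IVF2 and 68 in 33 cells of NT2, which was also above 2 UMIs per positive cell in NT2. Xelaev18034950m.g passed that bound in 3 libraries, with 20 UMIs in 7 cells of NT1, 216 in 51 cells of IVF2 and 307 in 76 cells of NT2, and not in IVF1, where it had 35 UMIs in 24 cells.

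Whether members were detected in the same cells was asked from the Pearson correlation r across cells of log2 UMIs per 10000 plus 1. Cells of 1 library share its depth and are not replicates, so r is a description. Among 44850 pairs of members, r reached 0.15 for 759 pairs in IVF1 and 947 in NT1, beside 592 in IVF2 and 293 in NT2. It did so in both IVF libraries for 22 pairs (0.0491%), of which 12 rested on no more than 8 shared cells in each of them. Of the 22 pairs, 4 reached 0.15 in NT1 and 1 in NT2. Most pairs with high r in 1 library thus did not have it in another. The 4 pairs in NT1 were 18.2% of the 22, against 2.11% of all 44850 pairs. The 1 pair in NT2 was 4.55% of them, against 0.653% of all pairs. Pairs with high r in both IVF libraries therefore reached it in NT1 more often than pairs at large. For NT2 the same comparison rests on 1 pair, and neither was tested. How many pairs would reach 0.15 in both IVF libraries by chance was not worked out.

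The pair that reached 0.15 in all 4 libraries was Xelaev18001776m.g with Xelaev18026034m.g. Its r was 0.20 over 566 cells of IVF1, 0.39 over 514 cells of NT1, 0.78 over 1275 cells of IVF2 and 0.60 over 1050 cells of NT2. Both genes were present in 10, 7, 89 and 27 cells of these libraries. Xelaev18001776m.g was in 6 of the 22 pairs, more than any other member. Its partners included Xelaev18035772m.g (r of 0.24 in IVF1 and 0.10 in NT1, beside 0.49 in IVF2 and 0.09 in NT2) and Xelaev18039034m.g (0.16, 0.27, 0.17 and 0.03). Xelaev18015644m.g with Xelaev18039034m.g had similar r in 3 libraries, at 0.27 in IVF1 and 0.22 in NT1, beside 0.24 in IVF2 and 0.13 in NT2.

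Co-detected groups were sought by average linkage on the lower r of the 2 IVF libraries, cut at 0.15, with at least 5 genes to a group. This gave 0 groups. In IVF1 alone the same procedure gave 10 groups with 64 genes, and in IVF2 alone 10 groups with 72 genes. NT1 alone gave 14 groups and NT2 alone 3. Groups found in one library were mostly not seen in the others. The median r within the IVF1 groups lay between 0.17 and 0.27 in IVF1 and between -0.03 and 0.04 in the other libraries.

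**Figure D2:**
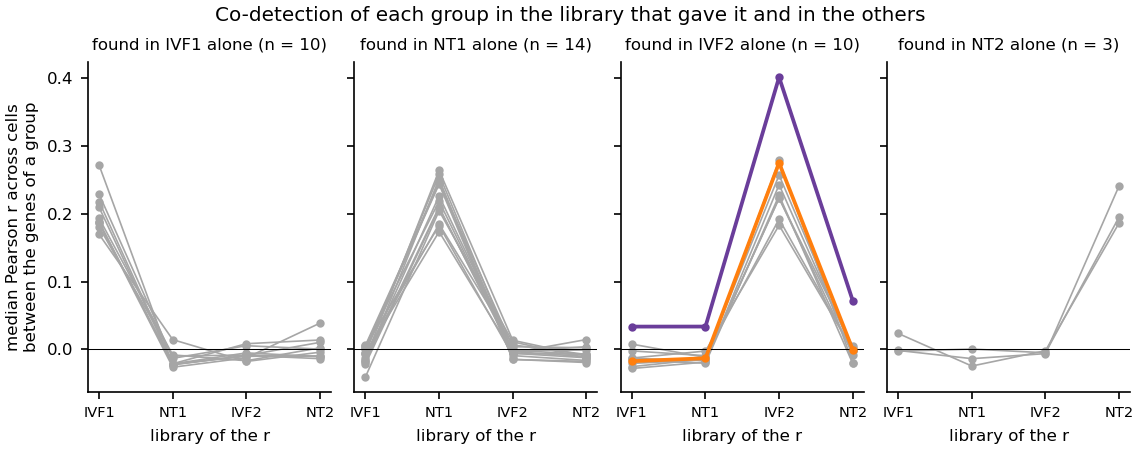
Median Pearson r across cells between the genes of each group (vertical axis) in the 4 libraries (horizontal axis), with 1 panel for the library in which the groups were found. Each line is a group. Of the IVF2 groups, the 10-gene group (purple) had a median r of 0.03 in IVF1 and 0.03 in NT1, beside 0.40 in IVF2 and 0.07 in NT2, and the 11-gene group (orange) was at or below 0.00 outside IVF2.

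After the combined grouping gave no group, the groups of single IVF libraries were taken instead, and those with at least 10 positive cells in every library were followed. A cell was positive for a group when it held UMIs of at least 3 of its genes and of at least 25% of them. No IVF1 group and 2 IVF2 groups had enough positive cells. They are the group of 11 genes, with a median r of -0.02 in IVF1 and -0.01 in NT1, beside 0.27 in IVF2 and -0.00 in NT2, and the group of 10 genes. Values in IVF2 chose both groups, so high values in IVF2 are no result about them.

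In the 10-gene group the gene with the highest mean r to the others was Xelaev18024402m.g, which was also the most abundant member. It had 41 UMIs in 34 cells of IVF1, 21 in 16 cells of NT1, 939 in 188 cells of IVF2 and 163 in 92 cells of NT2. Its level was 2.09, 1.27, 16.0 and 3.27 CPM in these libraries. The high value in IVF2, the library that chose the group, is no result about this gene. Xelaev18001776m.g, the next in abundance, had 50 UMIs in 33 cells of IVF1, 58 in 26 cells of NT1, 804 in 133 cells of IVF2 and 256 in 66 cells of NT2. It reached 1.52, 2.23, 6.05 and 3.88 UMIs per positive cell and was concentrated in NT libraries as well.

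Xelaev18026034m.g had 43 UMIs in 18 cells of IVF1, 19 in 14 cells of NT1, 484 in 107 cells of IVF2 and 135 in 53 cells of NT2. Xelaev18035772m.g was found in few cells, with 42 UMIs in 15 cells of IVF1, 28 in 16 cells of NT1, 182 in 54 cells of IVF2 and 110 in 28 cells of NT2. Its 2.80, 1.75, 3.37 and 3.93 UMIs per positive cell lay above the median of the members in every library. Xelaev18015644m.g and Xelaev18013117m.g were detected about as widely in NT2 as in IVF2 or more so. The former had 37 UMIs in 26 cells of IVF1, 25 in 21 of NT1, 288 in 110 of IVF2 and 162 in 106 of NT2. The latter had 37 UMIs in 27 cells of IVF1, 55 in 37 of NT1, 474 in 124 of IVF2 and 349 in 197 of NT2.

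The remaining genes of this group were Xelaev18043801m.g, Xelaev18037444m.g, Xelaev18041464m.g and Xelaev18020242m.g. Outside IVF2, the first 3 had at most 1.68 UMIs per positive cell, and Xelaev18020242m.g had 40 UMIs in 31 cells of IVF1 and 19 in 15 cells of NT2. In IVF2, the 10 genes gave 3616 UMIs, 86.4% of them in positive cells. That value is no result, because IVF2 chose the genes. The share was lower in the other libraries, at 54.1% (NT2), 41.3% (IVF1) and 28.8% (NT1). Positive cells are defined by these same genes, so all of these shares follow in part from the definition.

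In the 11-gene group Xelaev18007923m.g had the highest mean r and the highest level. It had 34 UMIs in 31 cells of IVF1, 45 in 34 cells of NT1, 700 in 163 cells of IVF2 and 100 in 81 cells of NT2. Its 4.29 UMIs per positive cell in IVF2 stood beside at most 1.32 in the other libraries. The concentration of this gene was therefore seen in IVF2, the library that chose the group. Xelaev18010749m.g had 44, 3, 87 and 55 UMIs in IVF1, NT1, IVF2 and NT2, in 35, 3, 42 and 45 cells. Xelaev18032206m.g was seen in 36, 71, 68 and 84 cells, Xelaev18002794m.g in 37, 50, 82 and 64, and Xelaev18023217m.g in 33, 26, 84 and 36, all with at most 1.40 UMIs per positive cell.

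Whether each gene followed its group was asked without using the gene itself. Cells with at least 3 of the other genes of the group were compared with all other cells. IVF2 chose the genes because they were found together there, so its values here are no result. In the 10-gene group, the share of cells with a UMI of the left-out gene was higher in the positive cells for 8 of 10 genes in IVF1 and 8 in NT1, beside 10 in IVF2 and 10 in NT2. The median share over genes was 13.8% against 4.93% of other cells in IVF1, 15.5% against 4.47% in NT1, 52.0% against 3.60% in IVF2 and 25.5% against 5.17% in NT2. Xelaev18001776m.g was found in 7 of 17 positive cells against 26 of 549 others in IVF1, in 3 of 10 against 23 of 504 in NT1 and in 27 of 70 against 39 of 980 in NT2. Xelaev18043801m.g, in contrast, was found in 0 of 20 positive cells of IVF1 and 0 of 11 of NT1, which allows shares of up to 15% and 27.3%, above those of the other cells.

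For the 11-gene group the left-out gene was higher in positive cells for 10 of 11 genes in IVF1 and 4 in NT1, beside 11 in IVF2 and 7 in NT2. The median shares were 11.1% against 5.28% in IVF1, 5.00% against 5.24% in NT1, 38.7% against 3.49% in IVF2 and 4.76% against 4.38% in NT2. The IVF2 values are again no result, because IVF2 chose the genes. Positive cells of this group were deep cells in 3 libraries. Their median UMI total was 81272 against 26602 in negative cells of IVF1, 97553.5 against 22948 in NT1 and 56315 against 44904 in NT2, but 39913 against 44565 in IVF2. For the 10-gene group it was 51794 against 26800 in IVF1, 28934.5 against 23232 in NT1, 50089 against 43947 in IVF2 and 49815 against 44644 in NT2. The part of cell depth in the left-out shares was not tested.

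**Figure D3:**
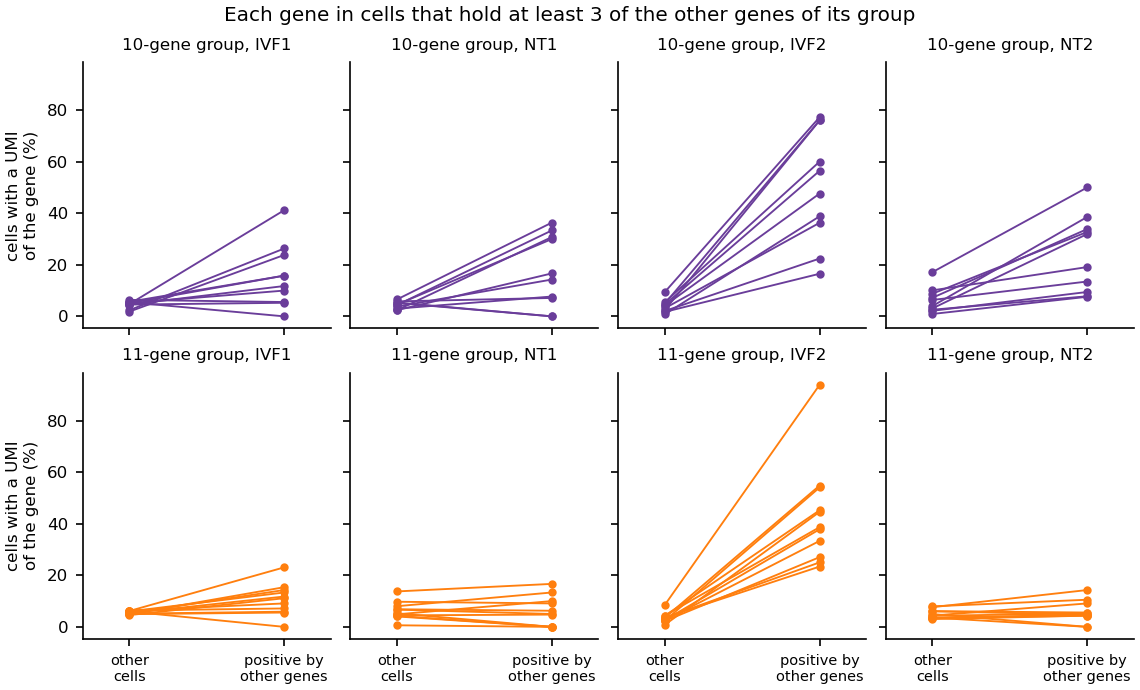
Share of cells with a UMI of each gene (vertical axis, %) among cells that held at least 3 of the other genes of its group and among all other cells, by library. Each line is a gene. Lines of the 10-gene group (top) rose for 10 of 10 genes in IVF2 and NT2 and for 8 in IVF1 and NT1. Those of the 11-gene group (bottom) rose for 11 of 11 in IVF2, 10 in IVF1, 7 in NT2 and 4 in NT1. IVF2 chose the genes of both groups, so the rises there are no result.

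The share of cells positive for the 10-gene group was 4.24% in IVF1 (24 of 566 cells, exact 95% binomial interval 2.74 to 6.24), 3.11% in NT1 (16 of 514, 1.79 to 5.01), 9.18% in IVF2 (117 of 1275, 7.65 to 10.9) and 7.90% in NT2 (83 of 1050, 6.35 to 9.71). These intervals cover counting error only. In each experiment the NT share was the lower one, and the intervals overlapped. With every cell thinned to 20000 UMIs, which left 384, 311, 1181 and 895 cells, the share was 2.08% in IVF1, 2.57% in NT1, 6.69% in IVF2 (5.33 to 8.27) and 2.68% in NT2 (1.73 to 3.96). The direction then turned in experiment 1, and the intervals no longer overlapped in experiment 2. With UMIs of 2 genes enough for a positive cell, the share was 13.3% in IVF2 and 18.2% in NT2. No order between NT and IVF held across these ways of counting, and IVF2 had chosen the genes.

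The share of cells positive for the 11-gene group was 3.36% in IVF1 (19 cells, 2.03 to 5.19), 4.67% in NT1 (24 cells, 3.01 to 6.87), 6.12% in IVF2 (78 cells, 4.87 to 7.58) and 2.57% in NT2 (27 cells, 1.70 to 3.72). Thinned to 20000 UMIs, 1, 1, 46 and 7 cells were positive, or 0.260%, 0.322%, 3.89% and 0.782%. At this depth few cells outside IVF2 were positive. The higher share in IVF2 is no result, because IVF2 chose the genes. With UMIs of 2 genes enough for a positive cell, the shares of IVF2 and NT2 were nearly the same, at 11.9% and 11.8%. Cells positive for both groups numbered 4 in IVF1, 2 in IVF2 and 0 in either NT library. Of the cells positive for the 11-gene group these were 4 of 19 in IVF1, 0 of 24 in NT1, 2 of 78 in IVF2 and 0 of 27 in NT2. Over all cells, 4.24%, 3.11%, 9.18% and 7.90% were positive for the 10-gene group in the same order. How many such cells would arise by chance from the number of positive cells was not worked out. The counts are thus no evidence of a difference between NT and IVF. Since no cell type could be named, no cells known to lack these genes were at hand, and the level that free RNA in the droplets gives is not known.

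**Figure D4:**
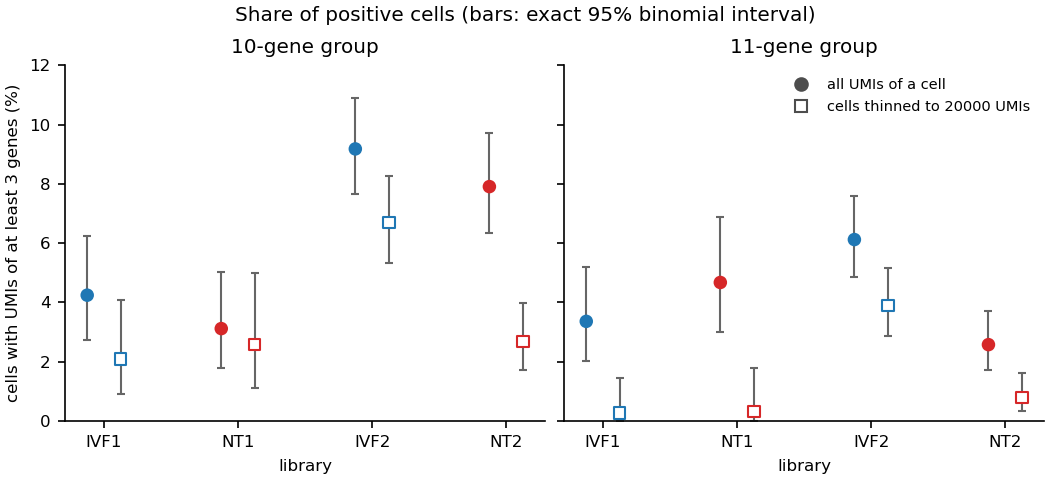
Share of cells positive for each group (vertical axis, %) in the 4 libraries, IVF in blue and NT in red, with exact 95% binomial intervals. Filled circles use all UMIs of a cell and open squares cells thinned to 20000 UMIs. The 10-gene group was seen in 2.08 to 6.69% of thinned cells in all 4 libraries, and the 11-gene group in 3.89% of IVF2 and at most 0.782% elsewhere. IVF2 chose the genes of both groups, so its higher shares are no result.

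Genes that are no members were not used to call cells positive. Among them were the 15 genes dropped for their NT over IVF level and 38 cut by the limit, which had met the IVF criteria. The UMIs of all genes that are no members were summed over the positive and over the negative cells of each library. These sums were compared by the quasi-likelihood test of edgeR, in which the library was a block. The p-values were adjusted by Benjamini-Hochberg over all genes tested. In the fit of all 4 libraries, cells positive for the 10-gene group differed widely from the others. That fit holds IVF2, which chose the group, so it is to be read with the fit without IVF2 given below. At an adjusted p of 0.05, 2435 of 15201 genes differed, 886 higher (5.83% of the genes tested) and 1549 lower (10.2%) in positive cells. Of these, 761 and 1380 had the same direction in all 4 libraries. The median log2 difference was 0.73 for genes called higher and -1.11 for genes called lower, beside 0.01 over all genes tested, and 310 and 883 of them lay beyond 1 on the log2 scale.

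Because the group was found in IVF2, the test was repeated without that library. edgeR then called 1661 genes, of which 1555 were among the 2435, and all 2396 of the calls still tested kept their direction. The 2435 calls came from a fit that also held the remaining libraries, so the shared calls and kept direction follow in part from that. Set against the negative cells nearest in UMI total, the positive cells differed in 2334 genes, of which 2068 were the same genes. DESeq2 called 1962. Without the library as a block edgeR called 76.

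The largest rises and falls among the calls with the same direction in 4 libraries and at least 10 CPM are named here by identifier. Xelaev18024146m.g had 2.79 CPM in positive against 0.0552 in negative cells of IVF1, 4.88 against 0.565 in NT1, 112 against 0.863 in IVF2 and 26.4 against 1.41 in NT2. The log2 difference was 5.50 ± 0.48 (SE, edgeR adjusted p = 3.0e-06). Xelaev18003045m.g had 16.7 against 0.331 CPM in IVF1, 1.63 against 0.251 in NT1, 66.2 against 1.04 in IVF2 and 3.14 against 0.221 in NT2, a log2 difference of 5.44 ± 0.37 (edgeR adjusted p = 3.7e-07). Both genes were higher in the positive cells of each library and highest in IVF2. In experiment 1 the positive cells were few, 24 in IVF1 and 16 in NT1, so low CPM values there stand for few UMIs. Without IVF2, which chose the group, the log2 differences of the 2 genes were 4.11 and 4.46. Without NT2 that of Xelaev18024146m.g was 6.44.

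Xelaev18034758m.g was the largest fall. It had 2.79 CPM in positive against 17.6 in negative cells of IVF1, 1.63 against 42.0 in NT1, 63.4 against 771 in IVF2 and 2.69 against 139 in NT2, a log2 difference of -4.05 ± 0.27 (edgeR adjusted p = 3.2e-07). Xelaev18011292m.g had 0 against 4.58 CPM in IVF1, 0 against 4.21 in NT1, 0.930 against 19.6 in IVF2 and 1.79 against 14.0 in NT2, a log2 difference of -3.79 ± 0.33 (edgeR adjusted p = 3.0e-06). Few cells were positive in IVF1 (24) and NT1 (16), so the values of both genes in positive cells there rest on few UMIs. A value of 0 there does not show absence. The level of Xelaev18034758m.g in negative cells differed widely between libraries, while its direction did not. Its log2 difference was -5.25 without IVF2, -4.96 without doublets and -2.43 when 2 genes made a cell positive. That of Xelaev18011292m.g was -3.22 without IVF2, -1.90 with 2 genes and -4.52 without NT2.

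**Figure D5:**
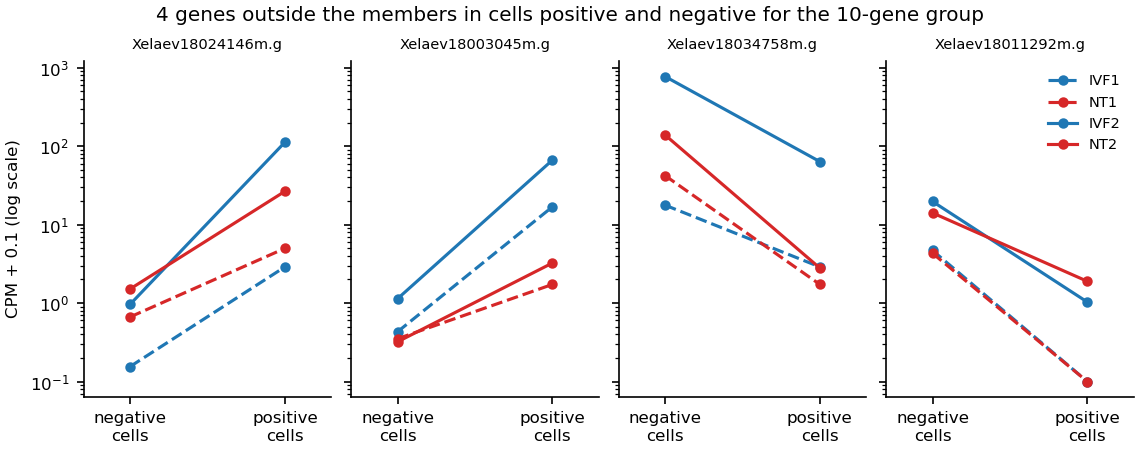
CPM plus 0.1 (vertical axis, log scale) of 4 genes outside the members in cells negative and positive for the 10-gene group, IVF in blue and NT in red, experiment 1 dashed and experiment 2 solid. Each line joins the summed cells of 1 library, and the lines of a gene run the same way in all 4 libraries, with log2 differences of 5.50, 5.44, -4.05 and -3.79. IVF2 chose the group, and without IVF2 the differences were 4.11, 4.46, -5.25 and -3.22.

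In cells positive for the 11-gene group, edgeR called 0 of 14863 genes higher (0%) and 0 lower (0%). Before adjustment 1004 of the 14863 genes had a p under 0.05, which is above the share of 0.05 expected with no difference. By DESeq2 22 genes were called. Without IVF2, edgeR called 10 genes, and against the negative cells nearest in UMI total it called 1. In a single draw of simulated counts per group, fewer changed genes were recovered here than for the 10-gene group. Of 200 changed genes, edgeR recovered 122 here, 35 of them 2-fold and 87 of them 4-fold changes. For the 10-gene group it recovered 166, 72 of them 2-fold and 94 of them 4-fold changes. The simulated libraries differed in depth only, so the power in the real libraries is not known from this. The 0 calls thus do not show that these positive cells are like the others.

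Whether genes marked the positive cells unequally in NT and IVF was tested by the interaction of both terms. For the 10-gene group edgeR called 0 of 15201 genes and DESeq2 0. In edgeR 563 genes had an unadjusted p under 0.05. For the 11-gene group edgeR called 0 of 14863 genes and DESeq2 0. In edgeR 190 genes had an unadjusted p under 0.05. With no difference a share of 0.05 of the genes tested is expected under that p, and the counts of both groups were below it. With 2 libraries per condition, these counts do not show that the differences are equal in NT and IVF.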

How the data were processed

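Ectoderm cells of 2 IVF and 2 NT libraries were measured by droplet scRNA-seq. Reads were aligned by the authors in Cell Ranger (version 2.2.0 per the submitters' processing notes, with a later version for the libraries of the newer chemistry per the study's methods), kept cells above 6000 UMIs and 2000 genes, and deposited UMI counts per gene and cell without normalization. Which library was made with which version of the library chemistry is not given in the sources used here. Groups were taken from the labels. The members, lists and tests were chosen with earlier results of these data known.

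Counts were read with scanpy 1.11.5 (Python 3.11.15), and doublets (7, 6, 31 and 11 cells in IVF1, NT1, IVF2 and NT2, called by Scrublet) were kept. Homeologous genes can share reads and are uncertain to that extent. The planned grouping over both IVF libraries gave 0 groups, so the groups of single IVF libraries, planned as alternatives, were described. Testing them was decided after that result. Sums over positive and negative cells were tested with edgeR 4.0.16 (TMM, genes kept by its filter on low counts, members left out of the fit), or DESeq2 1.42.0 as an alternative, in R 4.3.3. The positive and negative sums of a library come from the same pool of embryos, which is the pairing. Both tools were first checked on simulated counts.

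Named are, for each followed group, the 5 members of highest mean r and the 2 of highest mean CPM, the 3 most abundant members in no group, members at the bounds of the rule, and at most 2 rises and 2 falls among tested genes. Members at a bound of UMIs or of the share of cells are not named. Other names were chosen after their values were seen. Alternatives changed the bounds, the depth of cells, the doublets, the definition of a positive cell, the normalization, the filter, the block and the libraries used.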

Additional observations from a re-analysis of the deposited data

Results flagged for a closer look

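The share of cells positive for the 11-gene group moved in opposite directions in the 2 experiments. The log2 ratio of NT over IVF was 0.48 in experiment 1 (3.36% of IVF1 and 4.67% of NT1 cells) and -1.25 in experiment 2 (6.12% of IVF2 and 2.57% of NT2 cells). Each ratio rests on 1 library per condition, and no test of their difference was made. With UMIs of 2 genes enough for a positive cell, the ratio in experiment 2 was -0.014 (11.9% of IVF2 and 11.8% of NT2 cells). The genes of this group were chosen in IVF2, and its positive cells were deeper than the negative cells in every library except IVF2.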

How the results depend on the processing

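The list depended on its bounds. A minimum of 50 UMIs left 4 genes, also without the limit of 300 genes, and 90% of UMIs in the top cells left 148, also without the limit. Without the limit a minimum of 20 UMIs gave 943 genes and 70% of UMIs gave 596. Cells thinned to 20000 UMIs gave 10 genes, 1 of them a member, and cells thinned to 6000 UMIs gave 300 genes, 0 of them members. The 0 groups of the combined IVF libraries became 10 when either IVF library was left out, 11 with at least 2 genes and 1 with at least 3 genes to a group. IVF2 alone gave 2 groups with cells thinned to 20000 UMIs, which held 10 genes of the 11-gene group and 9 of the 10-gene group together, and 2 groups with the phi coefficient, which held 8 and 10.

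The log2 NT over IVF share of cells positive for the 10-gene group in experiment 2 was -0.22, and it was 0.45 with 2 genes for a positive cell, -0.98 with 4 genes, -1.32 with cells thinned to 20000 UMIs and -3.30 at 6000 UMIs. For the 11-gene group in experiment 2 it was -0.014 with 2 genes and -2.32 with cells thinned to 20000 UMIs. At 6000 UMIs, 0 of 566 cells of IVF1 were positive for either group, which by 3 counts of the total allows a share of up to 0.530%, so no ratio could be had in experiment 1. With the higher number of genes, 0 of 1050 cells of NT2 were positive for the 11-gene group, which allows up to 0.286% in the same way. The upper bounds of exact 95% intervals, as used for the other shares, are somewhat higher.

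For genes outside the members, the 10-gene group gave between 1661 and 2362 calls with 1 library left out. With no replicate block, thus ignoring the pairing within a library, it gave 76, and the 4 named genes kept their direction with edgeR adjusted p between 0.092 and 0.60. In the other settings with a value, 39 in all, they kept direction and call, with sizes that moved as given above. Xelaev18003045m.g did not enter the fit against the nearest negative cells and has no value there. For the 11-gene group DESeq2 gave 22 calls, no filter on low counts 2, the nearest negative cells 1, and leaving out 1 library between 0 and 10. Without the filter, the interaction gave 183 calls for the 11-gene group and 55 for the 10-gene group. Fits of thinned cells and of the stricter definition of a positive cell were not run, because a library had under 10 positive cells. Settings at 20000 UMIs, nearest negative cells, groups of fewer genes, doublets left out of the grouping, phi within IVF2, and bounds without the limit were added after seeing the data. With about 1 UMI per positive cell, depth limits what can be said of most members.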
